A study of Mus musculus with 6 samples.

Results

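Of 34 named mitosis genes, 22 were lower in verapamil-treated mouse osteoclast cultures than in controls, 1, the kinesin gene Kif23, was higher, and 11 did not pass the test. The genes were chosen by symbol as textbook components of cell division, with earlier results of these data known. Each of the 34 was found among the 16775 genes of the table. They were compared between 2 control libraries (replicates 1 and 3) and 3 verapamil libraries (replicates 1 to 3). Both groups were wild-type mouse bone marrow macrophages that had been grown with 30 ng/ml M-CSF and differentiated by adding 50 ng/ml RANKL, with serum at 10%. The titles give day 5 for every library, whereas the protocol describes medium changes up to day 7. The verapamil group also received verapamil, a calcium channel blocker used against high blood pressure, at a dose and time the labels do not give. Neither strain, sex nor age of the mice is stated, nor whether the replicates came from separate animals, and the p-values therefore reflect only how far these libraries differ, which may be technical. Control replicate 2 was not analysed here.

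Mitosis separates copied chromosomes into daughter nuclei. Cdk1 with cyclins A and B drives entry, the kinases Plk1, Aurora A and Aurora B order its steps, kinetochores tie chromosomes to the spindle, and the anaphase-promoting complex destroys cyclins so that cells can exit and divide. Osteoclasts are multinucleated cells that arise by fusion of macrophage precursors rather than by division, and mature ones do not divide, whereas M-CSF makes the precursors proliferate. RNA from such a culture is a mixture, and a lower level can mean fewer dividing cells or less RNA per cell, which cannot be told apart in these bulk libraries.

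Promoters of mitosis genes are known for 2 elements. One is the cell cycle homology region, bound by complexes that hold these genes silent in resting cells and activate them late in the cycle, and the other is the CCAAT box, bound by NF-Y. Windows from 250 bases before to 50 bases after a start site were found in RefSeq (GRCm38, patch 6) for 29 of the 34 genes and searched on both strands, with overlapping matches counted. The homology region was searched as TTTGAA and in the variant forms TTCGAA and, with another centre, TTTAAA, of which the variants read the same on both strands, and the box as CCAAT. The motif TTTGAA stood in 23 of 29 windows (79.3%), against 18.1% of 27025 windows of all genes. CCAAT stood in 23 (79.3%) against 37.9%, and at least 2 CCAAT boxes in 16 (55.2%) against 12.2%. Any of the 3 homology forms downstream of a CCAAT box was present in 23 windows (79.3%), against 6.08% of all. Base composition was not matched in these shares. The windows of the 4 most highly counted genes with that order are shown first, and then those of 3 genes picked after their values were seen because 1 fell, 1 rose and 1 did not pass the test (Ccnb2, Kif23 and Ccnb1). All are written 5′ to 3′ on the gene's strand, with the matches to these motifs in capitals.
Mki67: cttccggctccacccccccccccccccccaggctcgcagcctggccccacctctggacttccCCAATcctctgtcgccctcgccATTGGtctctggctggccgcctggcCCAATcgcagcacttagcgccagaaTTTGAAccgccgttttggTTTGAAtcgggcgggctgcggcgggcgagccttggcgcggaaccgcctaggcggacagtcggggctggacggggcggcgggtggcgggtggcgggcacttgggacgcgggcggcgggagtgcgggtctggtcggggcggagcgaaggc
Cenpa: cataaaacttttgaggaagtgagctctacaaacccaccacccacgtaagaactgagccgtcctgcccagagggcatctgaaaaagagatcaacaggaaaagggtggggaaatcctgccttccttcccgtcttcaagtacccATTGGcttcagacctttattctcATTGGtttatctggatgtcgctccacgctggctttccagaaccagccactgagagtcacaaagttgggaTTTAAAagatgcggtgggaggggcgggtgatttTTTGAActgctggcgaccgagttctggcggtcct
Top2a: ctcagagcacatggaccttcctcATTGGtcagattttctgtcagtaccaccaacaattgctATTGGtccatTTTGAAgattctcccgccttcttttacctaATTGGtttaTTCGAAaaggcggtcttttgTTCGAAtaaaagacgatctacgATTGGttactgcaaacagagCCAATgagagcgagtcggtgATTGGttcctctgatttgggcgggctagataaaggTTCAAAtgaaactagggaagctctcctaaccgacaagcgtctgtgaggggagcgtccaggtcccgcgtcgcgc
Cdk1: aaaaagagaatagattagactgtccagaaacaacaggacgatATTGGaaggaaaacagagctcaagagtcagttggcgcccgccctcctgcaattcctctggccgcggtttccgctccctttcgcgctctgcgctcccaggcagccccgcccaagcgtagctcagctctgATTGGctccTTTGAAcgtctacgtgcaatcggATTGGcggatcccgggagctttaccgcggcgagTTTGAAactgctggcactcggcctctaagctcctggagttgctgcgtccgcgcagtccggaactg
Ccnb1: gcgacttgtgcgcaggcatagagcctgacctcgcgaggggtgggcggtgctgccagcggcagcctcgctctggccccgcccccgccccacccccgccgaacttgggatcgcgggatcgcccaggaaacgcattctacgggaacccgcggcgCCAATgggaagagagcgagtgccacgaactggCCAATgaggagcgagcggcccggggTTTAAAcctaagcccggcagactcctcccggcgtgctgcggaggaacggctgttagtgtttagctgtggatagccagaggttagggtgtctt
Ccnb2: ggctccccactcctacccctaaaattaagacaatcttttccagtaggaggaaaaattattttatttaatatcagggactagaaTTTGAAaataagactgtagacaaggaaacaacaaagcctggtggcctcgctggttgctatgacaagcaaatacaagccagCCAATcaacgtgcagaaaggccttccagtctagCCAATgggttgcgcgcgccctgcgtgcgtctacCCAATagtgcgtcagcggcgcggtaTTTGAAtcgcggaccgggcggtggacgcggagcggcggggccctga
Kif23: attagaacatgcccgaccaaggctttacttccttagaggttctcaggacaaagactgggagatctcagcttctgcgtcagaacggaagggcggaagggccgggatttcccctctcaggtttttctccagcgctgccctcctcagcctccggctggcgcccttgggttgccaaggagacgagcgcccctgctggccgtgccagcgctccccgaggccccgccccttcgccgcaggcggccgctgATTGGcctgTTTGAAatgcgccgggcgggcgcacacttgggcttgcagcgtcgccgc
The Mki67 window is chr7:135716330-135716629 on the minus strand and the Cenpa window chr5:30666636-30666935 on the plus strand. Top2a is shown at chr11:99024140-99024439 (minus) and Cdk1 at chr10:69352863-69353162 (minus). The Ccnb1 window is chr13:100786437-100786736 (minus), that of Ccnb2 chr9:70421505-70421804 (minus) and that of Kif23 chr9:61946750-61947049 (minus).

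In each printed window a homology form lies downstream of a CCAAT box, which was the rule of choice for the most highly counted genes. Windows without that order, such as those of Birc5 and Kif2c, which hold no CCAAT box, were not printed. Over the 27 windows that held a homology form, the last match began at a median of 5 bases after the start site. TTTGAA stood in 16 of the 19 windows of genes that fell, in 6 of the 9 of genes that did not pass the test, and in that of Kif23, which rose. A CCAAT box with a homology form downstream of it stood in 13 of the 19, in 9 of the 9 and in that of Kif23, and at least 2 CCAAT boxes in 9 of the 19, 7 of the 9 and not in that of Kif23. These counts were not tested. Nuf2 and Nusap1 had none of the 4 motifs in this window and both fell. Kif2c, with the largest fall, has a tabulated window 3852 bases inside its outermost start, so its upstream region was not examined. Its TTTGAA match is nevertheless among the 16 of 19 and the 23 of 29. The start used was within 50 bases of the outermost start in 25 windows, and 71, 316 and 375 bases from it for Mki67, Aurka and Ect2.

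Each library held 20202340 to 21494523 estimated reads. All 12 osteoclast markers checked were present and tested. With verapamil 9 of them were lower, 1 was higher (Atp6v0d2, a proton pump subunit, log2 0.98) and 2 did not pass. The shares over all tested genes were 15.4% lower and 9.99% higher. The osteoclast markers summed to 7112 to 7808 CPM (read counts relative to library size, after TMM scaling) in controls and 3363 to 3512 CPM with verapamil. The controls differed more from each other than the verapamil libraries did, with a typical variance of 29.4 times Poisson noise between controls against 2.06 to 3.84 times between verapamil pairs. Of 12619 genes tested, 3200 changed, and 39.4% of these were higher with verapamil, a share of 28.2% with upper quartile scaling and 63.9% with the transcript length trend removed. The all-gene median was -0.013 on the log2 scale, and these scalings shifted it to -0.13 and 0.13.

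With verapamil 22 of the 34 mitosis genes were lower and 1 was higher at an adjusted p under 0.05 in edgeR's quasi-likelihood test. Over all tested genes 15.4% were called lower and 9.99% higher. At least a 2-fold fall was called for 17 of the 34, against 10.7% of all genes. The other 11 did not pass the test, 10 of them with negative estimates. In 27 members every control library lay above every verapamil library, and in 2 the reverse, where 29% and 27.7% of all tested genes did so. The median log2 fold change of the 34, taken without a filter on low counts, was -0.99, against -0.053 over all genes. Leaving out control replicate 1 gave a median of -1.18, and leaving out control replicate 3 one of -0.78. All 34 passed the filter on low counts, but Ttk did so through its control libraries alone. With no filter, 22 were again lower and 1 higher, where 10.9% and 7.09% of 16595 genes were (18% in either direction).

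**Figure D1:**
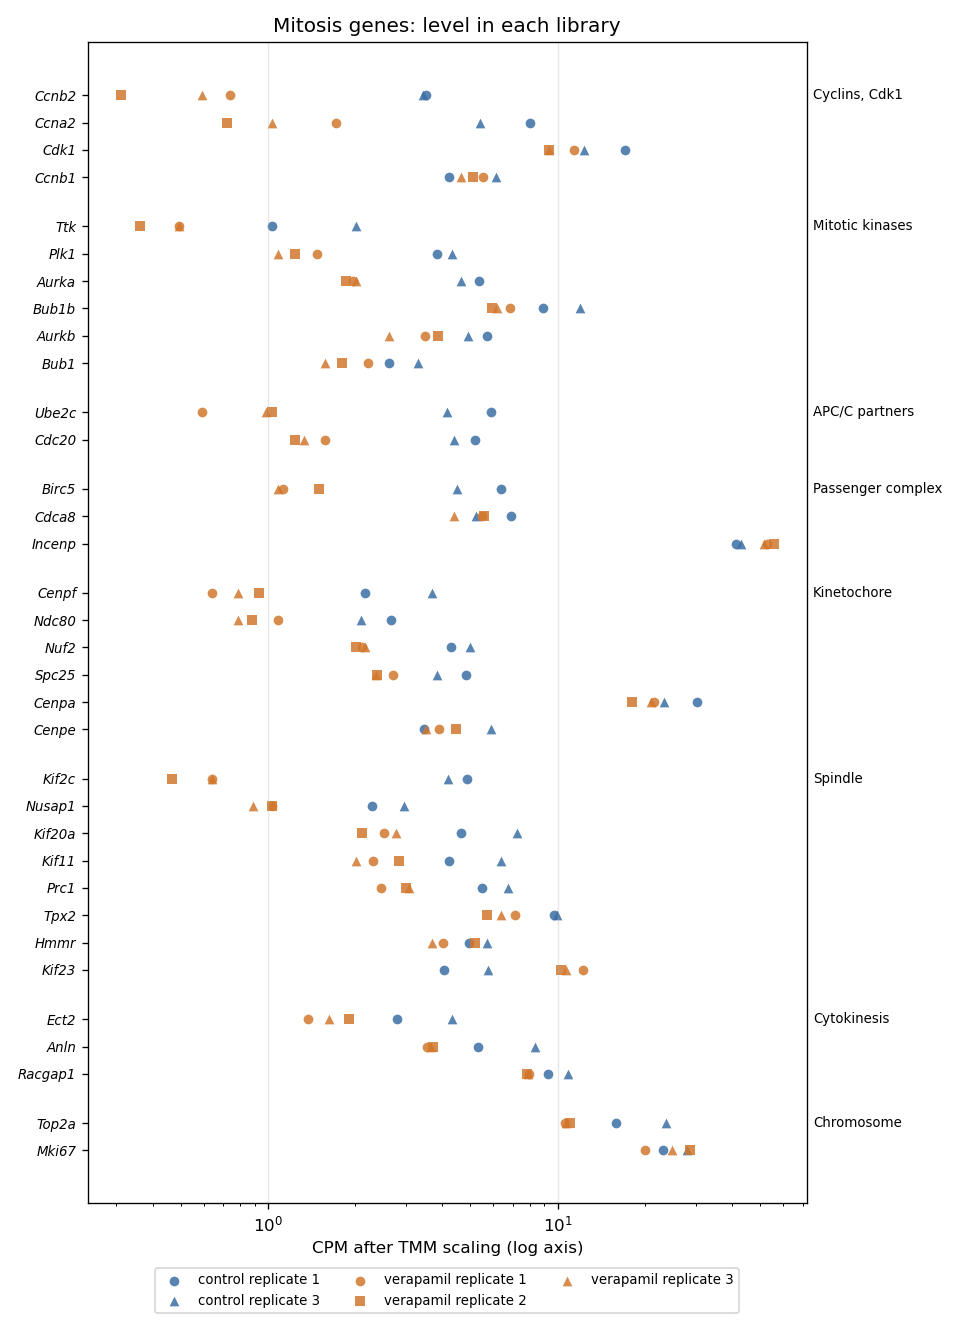
Level of each of the 34 mitosis genes in each of the 5 libraries, in CPM after TMM scaling on a log axis, with genes in rows grouped by role, control libraries in blue and verapamil libraries in orange. In 27 rows both control points lie to the right of all 3 verapamil points, and in the Kif23 and Incenp rows the order is reversed.

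Levels were low. In 26 of the 34 genes no library reached 10 CPM. Summed over the 34 genes, the controls had 6006 and 6726 counts and the verapamil libraries 4175, 4028 and 4024. Scaled, these sums were 269.9 and 287 CPM in controls and 205, 208 and 198 CPM with verapamil, so the groups did not overlap. The median gene had 5.06 and 5.29 CPM in controls and 2.48, 2.61 and 2.49 CPM with verapamil. Incenp, the most abundant member, did not fall, and its share of the sum was 15.3% and 14.9% in controls and 25.8%, 26.8% and 26% with verapamil. Per kilobase of the longest annotated transcript, control means ranged from 0.262 CPM for Cenpf to 12.2 CPM for Incenp, and 25 genes lay between 1 and 4 CPM per kilobase.

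Among the cyclins, Ccnb2 and Ccna2 fell and Ccnb1 did not pass the test. Ccnb2, which encodes cyclin B2, had 78 and 80 counts in controls and 15, 6 and 12 with verapamil. The control mean was 3.46 ± 0.0639 CPM (SD, n = 2) and the verapamil mean 0.546 ± 0.217 CPM (SD, n = 3), with log2 -2.64 (SE 0.319, edgeR adjusted p = 0.00278). The 2 controls were nearly equal and every verapamil library was far below them. Ccna2, for cyclin A2, which acts in S phase and early mitosis, had 178 and 126 counts in controls and 35, 14 and 21 with verapamil (log2 -2.52, SE 0.354, edgeR adjusted p = 0.00463). Verapamil replicate 2 was the lowest library for both genes.

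Ccnb1, for cyclin B1, the main mitotic partner of Cdk1, had 94 and 144 counts in controls and 112, 99 and 94 with verapamil. Its groups overlapped, with an estimate of -0.030 (log2, SE 0.207, edgeR adjusted p = 0.925) that became -0.27 if control replicate 1 was dropped, 0.27 if control replicate 3 was dropped and 0.16 with the length trend removed. A processed pseudogene, Gm12856, matches 51.9% of the longest Ccnb1 transcript at 98.1% identity, and how its reads were counted is not given in the sources used here. Cdk1, the kinase itself, had 380 and 289 counts in controls and 232, 181 and 189 with verapamil. Both controls lay above all 3 verapamil libraries, but the change did not pass (log2 -0.55, SE 0.183, edgeR adjusted p = 0.0739).

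Ratios between genes of 1 library do not depend on how libraries are scaled. The count of Ccnb1 was 1.21 and 1.80 times that of Ccnb2 in the controls and 7.47, 16.6 and 7.87 times with verapamil. Cdk1 had 2.13 and 2.29 times the counts of Ccna2 in controls and 6.68, 13.3 and 9.09 times with verapamil. Both ratios separated the groups without overlap. These and the other ratios given are between genes of 1 process, chosen after their values were seen and written with the gene of the higher log2 fold change on top, so that they restate the values of the genes and carry no test.

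The kinase genes all had negative estimates, and 4 of 6 fell. Plk1, for polo-like kinase 1, which acts from entry to cytokinesis, had 85 and 101 counts in controls and 30, 24 and 22 with verapamil (log2 -1.68, SE 0.214, edgeR adjusted p = 0.00331). Aurka, the spindle pole kinase Aurora A, had 119 and 109 counts in controls and 40, 36 and 41 with verapamil, a narrow spread in both groups (log2 -1.36, SE 0.173, edgeR adjusted p = 0.00335). Ttk, the kinase that starts the spindle checkpoint, was the least counted member, with 23 and 47 counts in controls and 10, 7 and 10 with verapamil. It was lower by log2 -1.75 (SE 0.395, edgeR adjusted p = 0.0232, and 0.0248 with no filter on low counts). No verapamil library reached the filter's minimum, so the gene was in the filtered test only through the controls. The ratio of its summed, scaled counts was 0.294, with an exact 95% binomial interval of 0.181 to 0.464 that covers counting error only.

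Of the genes for the checkpoint proteins BubR1 and Bub1, the first passed the test, and a difference between them was not tested. Bub1b, which encodes BubR1, had 198 and 279 counts in controls and 139, 115 and 125 with verapamil (log2 -0.72, SE 0.171, edgeR adjusted p = 0.0274). Bub1 had 58 and 77 against 45, 35 and 32 (log2 -0.66, SE 0.235). Aurkb, the kinase Aurora B, had 127 and 115 against 71, 75 and 53 (log2 -0.67, SE 0.212). The control libraries of both lay above the verapamil libraries, and neither passed (adjusted p = 0.089 and 0.0633). Aurkb passed with upper quartile scaling (log2 -0.80), without control replicate 3 (log2 -0.78) and with the replicate block (log2 -0.81), and Bub1 without control replicate 1 (log2 -0.81).

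Both partners of the anaphase-promoting complex on the list fell strongly. Ube2c, the ubiquitin-conjugating enzyme that works with the complex, had 131 and 97 counts in controls and 12, 20 and 20 with verapamil (log2 -2.52, SE 0.296, edgeR adjusted p = 0.00253). Cdc20, its activator in metaphase, had 115 and 103 counts in controls and 32, 24 and 27 with verapamil (log2 -1.79, SE 0.201, edgeR adjusted p = 0.00223). The lowest control was 4.14 CPM for Ube2c and 4.40 CPM for Cdc20, and the highest verapamil library 1.03 and 1.57 CPM. Of 16 genes of the complex itself and its other partners, 1 was lower (Anapc15, log2 -0.56, edgeR adjusted p = 0.0481, not past the threshold without a filter on low counts, with the replicate block or when any 1 verapamil library was left out) and 0 were higher, and their median log2 fold change was -0.023. Of all tested genes 25.4% were called. Without control replicate 3, 8 of the 16 were called, where 60.9% of all genes were.

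The chromosomal passenger complex, in which Incenp, survivin and borealin carry Aurora B to centromeres and then to the midzone, was split, with 1 subunit gene lower and the others not past the test. Birc5, for survivin, had 142 and 105 counts in controls and 23, 29 and 22 with verapamil (log2 -2.13, SE 0.251, edgeR adjusted p = 0.0026). Cdca8, for borealin, had 153 and 122 counts in controls and 111, 108 and 89 with verapamil, and after scaling the groups overlapped (log2 -0.23, edgeR adjusted p = 0.403). Incenp had 919 and 1005 counts in controls and 1077, 1080 and 1047 with verapamil. All 3 verapamil libraries lay above both controls, and the change did not pass (log2 0.34, SE 0.1, edgeR adjusted p = 0.0506). It passed as higher in DESeq2 (log2 0.35) and with the length trend removed (log2 0.45). Without control replicate 1 or 3 its log2 fold change was 0.32 or 0.37. With upper quartile scaling it was 0.23 and did not pass (edgeR adjusted p = 0.14). Incenp also did not pass with no filter, the stricter filter or the replicate block, or without any 1 of the verapamil libraries. The count of Incenp was 6.47 and 9.55 times that of Birc5 in controls and 46.5, 37.1 and 47.4 times with verapamil, and that of Cdca8 was 1.08 and 1.16 times against 4.79, 3.71 and 4.03 times.

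**Figure D2:**
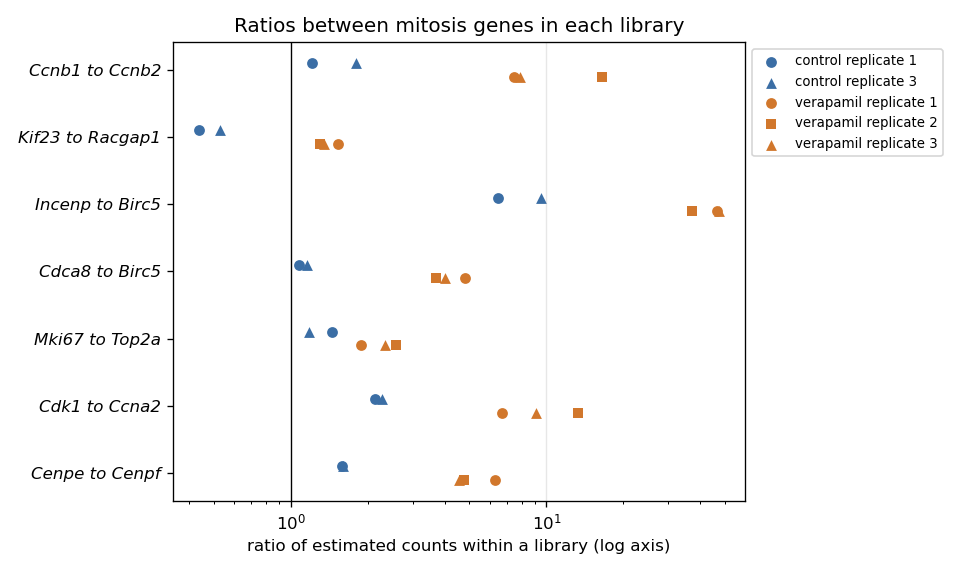
Ratios of estimated counts between pairs of mitosis genes within each library, on a log axis, with 2 control libraries in blue and 3 verapamil libraries in orange. The pairs were chosen after their values were seen, with the gene of the higher log2 fold change on top, so that verapamil points lie to the right of control points, from Mki67 to Top2a, with 1.18 and 1.45 in controls and 1.88 to 2.59 with verapamil, to Ccnb1 to Ccnb2.

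Kinetochore genes fell in part, 4 of 6. The Ndc80 complex is the rod that grips spindle microtubules, and the 3 subunit genes on the list all fell. Ndc80 had 59 and 49 counts in controls and 22, 17 and 16 with verapamil (log2 -1.36, SE 0.256, edgeR adjusted p = 0.0124). Nuf2 had a mean of 4.63 ± 0.513 CPM (n = 2) in controls and 2.10 ± 0.0784 CPM (n = 3) with verapamil (log2 -1.14, edgeR adjusted p = 0.00632). Spc25 was lower by a smaller amount (log2 -0.80, edgeR adjusted p = 0.0273), a call lost with the replicate block and without any 1 of the verapamil libraries.

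Cenpf and Cenpe are large proteins of the outer kinetochore, of which the second is a kinesin. Cenpf fell, with 48 and 86 counts in controls against 13, 18 and 16 with verapamil (log2 -1.89, SE 0.323, edgeR adjusted p = 0.00925). Cenpe did not pass the test. It had 77 and 138 counts in controls and 79, 86 and 71 with verapamil, and after scaling control replicate 1 (3.46 CPM) lay below all 3 verapamil libraries and control replicate 3 (5.89 CPM) above them (log2 -0.25, edgeR adjusted p = 0.501). Leaving out control replicate 1 gave -0.58, which passed the test, and leaving out control replicate 3 gave 0.19. Cenpa, the histone H3 variant that marks centromeres, was the second most abundant member per kilobase and did not pass (675 and 546 counts against 437, 349 and 426, log2 -0.41, edgeR adjusted p = 0.101).

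Among 8 genes of spindle motors and microtubule proteins 6 fell, 1 rose and 1 did not pass. Kif2c, the kinesin that dismantles microtubule ends, had the largest fall of the 34 genes. Its counts were 108 and 98 in controls and 13, 9 and 13 with verapamil, or 4.52 ± 0.474 CPM (n = 2) against 0.582 ± 0.101 CPM (n = 3), and the estimate was -2.94 on the log2 scale (SE 0.234, edgeR adjusted p = 0.000799). Verapamil libraries thus held 13% of the control level. Its log2 fold change ran from -3.04 to -2.81 when 1 library was left out.

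Smaller falls were measured for the other spindle genes. Nusap1, a microtubule bundling protein, changed by -1.41, Kif20a, the kinesin that moves the passenger complex to the midzone, by -1.26, and Kif11, the motor that pushes spindle poles apart, by -1.15 on the log2 scale. Prc1, which cross-links antiparallel midzone microtubules, had 122 and 158 counts in controls and 50, 58 and 62 with verapamil (log2 -1.11, SE 0.186, edgeR adjusted p = 0.00875). Tpx2, the activator of Aurora A, had nearly equal controls (9.71 and 9.95 CPM) and 7.13, 5.68 and 6.36 CPM with verapamil. This was a small fall (log2 -0.62, edgeR adjusted p = 0.0271) that did not pass with the replicate block. Hmmr, a spindle assembly protein, had overlapping groups (log2 -0.31, edgeR adjusted p = 0.277).

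Kif23, the kinesin subunit of centralspindlin, was the 1 mitosis gene that rose. Its counts were 90 and 135 in controls and 249, 198 and 216 with verapamil, so every verapamil library exceeded both controls. Control libraries averaged 4.90 ± 1.22 CPM (n = 2) and verapamil libraries 11.04 ± 1.07 CPM (n = 3), an increase of 1.17 on the log2 scale (SE 0.196, edgeR adjusted p = 0.00867). It passed in each of the other settings run, with log2 fold changes from 0.94 without control replicate 1 to 1.45 without control replicate 3. Kif23 (Entrez 71819) lies on chromosome 9 at 61917277 to 61946810 of GRCm38, shares no exon bases with another GENCODE gene, and has no copy at 90% identity among GENCODE transcripts.

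Centralspindlin joins Kif23 to Racgap1 and recruits Ect2 to place the cleavage furrow. Racgap1 had 206 and 255 counts in controls and 162, 152 and 160 with verapamil and did not pass (log2 -0.35, edgeR adjusted p = 0.103), though it did with upper quartile scaling, with the length trend removed and without control replicate 1 (log2 from -0.47 to -0.30). The count of Kif23 was 0.437 and 0.527 times that of Racgap1 in controls and 1.54, 1.30 and 1.35 times with verapamil, which turned the order of the 2 genes in every library. Ect2 fell from 62 and 101 counts to 28, 37 and 33 (log2 -1.12, edgeR adjusted p = 0.029). Anln, for anillin, the scaffold of the contractile ring, fell from 118 and 195 counts to 72, 72 and 74 (log2 -0.91, edgeR adjusted p = 0.0297). For Anln, dropping control replicate 1 gave -1.19 and dropping control replicate 3 gave -0.54.

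Of the genes most used as proliferation markers, Top2a passed the test and Mki67 did not, and a difference between them was not tested. Top2a, the topoisomerase that untangles sister chromatids, had 353 and 552 counts in controls and 216, 214 and 217 with verapamil (log2 -0.87, SE 0.181, edgeR adjusted p = 0.0175). Mki67, which encodes the Ki-67 antigen that coats mitotic chromosomes, had 512 and 653 counts in controls and 406, 554 and 505 with verapamil. Scaled, that was 23.0 and 27.9 CPM against 19.97, 28.6 and 24.9 CPM, with overlapping groups (log2 -0.056, SE 0.18, edgeR adjusted p = 0.835). Leaving out single libraries gave Mki67 estimates from -0.19 to 0.089 and Top2a estimates from -1.12 without control replicate 1 to -0.56 without control replicate 3.

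**Figure D3:**
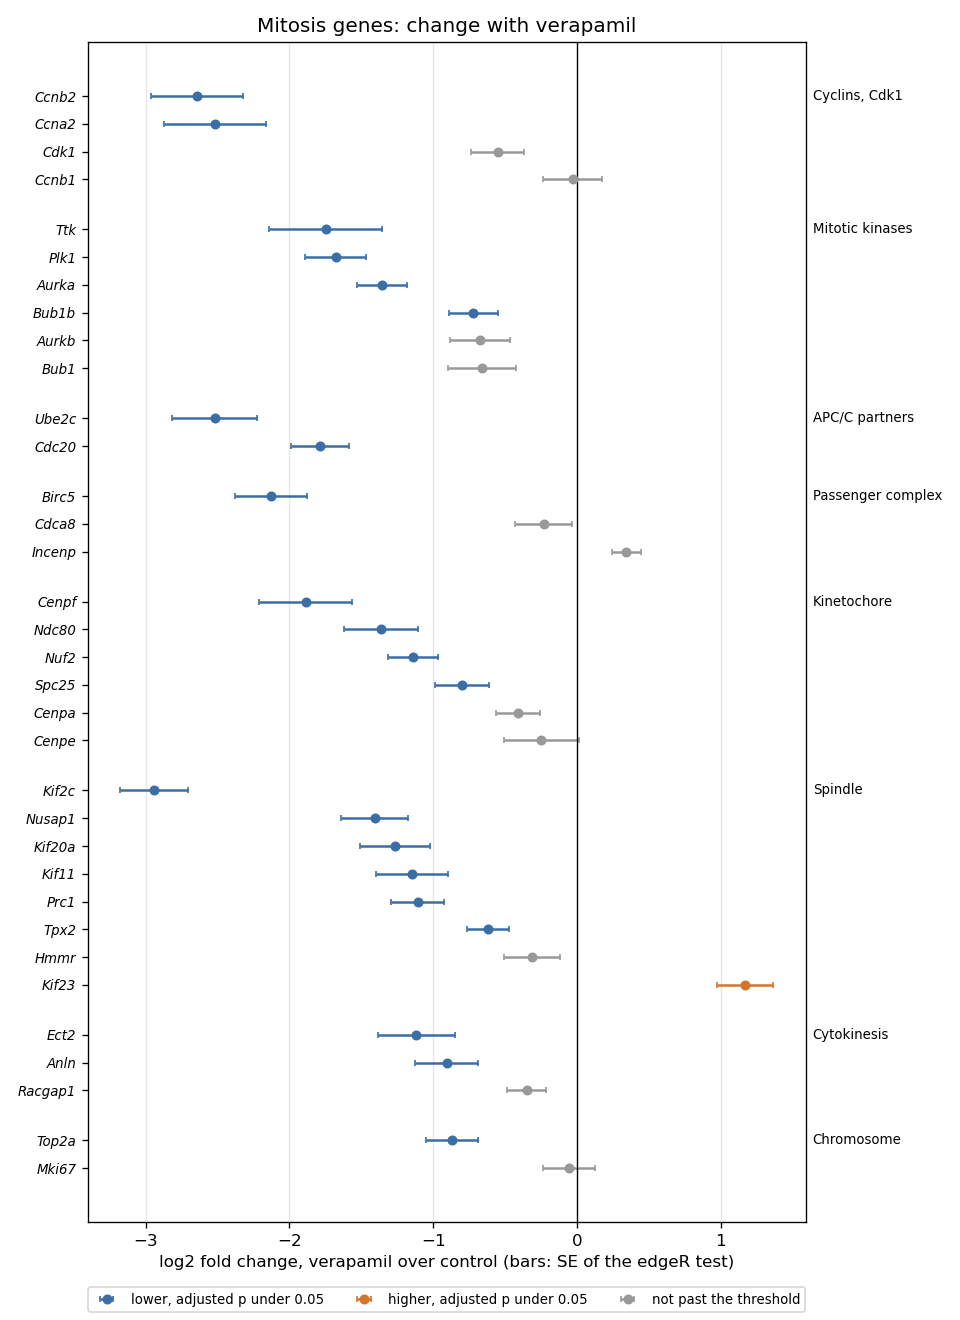
Log2 fold change of each mitosis gene with verapamil over control, with bars for the SE derived from the edgeR test (n = 2 and 3 libraries) and genes in rows grouped by role. The 22 genes that fell are in blue, Kif23, which rose, in orange, and the 11 that did not pass in grey.

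The number of calls depended on which library was left out. Of the 23 called genes, 13 kept the call when any 1 library was left out, namely Ccnb2, Ccna2, Plk1, Aurka, Birc5, Cdc20, Cenpf, Kif23, Kif2c, Nusap1, Prc1, Ube2c and Nuf2. The other 10 lost it without at least 1 verapamil library, 7 of them (Top2a, Bub1b, Tpx2, Ttk, Spc25, Anln and Ect2) without any of replicates 1, 2 and 3. Kif11 lost it without verapamil replicate 1 or 3, Kif20a without 1 or 2, and Ndc80 without 2 or 3. In each of the fits without a verapamil library, 14 mitosis genes were called (13 lower and Kif23 higher), where 11.8%, 12.4% and 11.6% of all genes were, against 25.4% with all libraries. Without control replicate 1 or 3, 27 mitosis genes were called, where 35.3% and 60.9% of all genes were, and the 1 remaining control gives no spread of its own. With the replicate block 22 were called, against 26.3% of all genes.

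Control replicates 1 and 3 differed in a way that went with transcript length. Of the 34 genes, 13 were higher in control replicate 1 and 21 in control replicate 3. The 17 with the shorter transcripts (up to 3526 bases) had a median log2 difference of 0.20 between replicate 1 and replicate 3, and the 17 longer ones (from 3645 bases) -0.29. Across the 34 genes, log2 length and this difference had a Pearson correlation of -0.476 and a Spearman rank correlation of -0.481, and across 12320 tested genes -0.553 and -0.629. These are descriptions across genes of 2 libraries, and genes are not independent replicates. Between treatments the relation was the opposite and weaker, with a Pearson correlation of 0.319 across the 34 genes and 0.182 across all. The shorter 17 had a median log2 fold change of -1.41 with verapamil and the longer 17 of -0.87. With the length trend removed from each library, 23 mitosis genes were lower and 2 higher, where 16.6% and 29.4% of all genes were (45.9% in either direction). The largest changes kept their direction (Kif2c -2.78, Ccna2 -2.37, Ccnb2 -2.34, Ube2c -2.28 and Kif23 1.28).

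**Figure D4:**
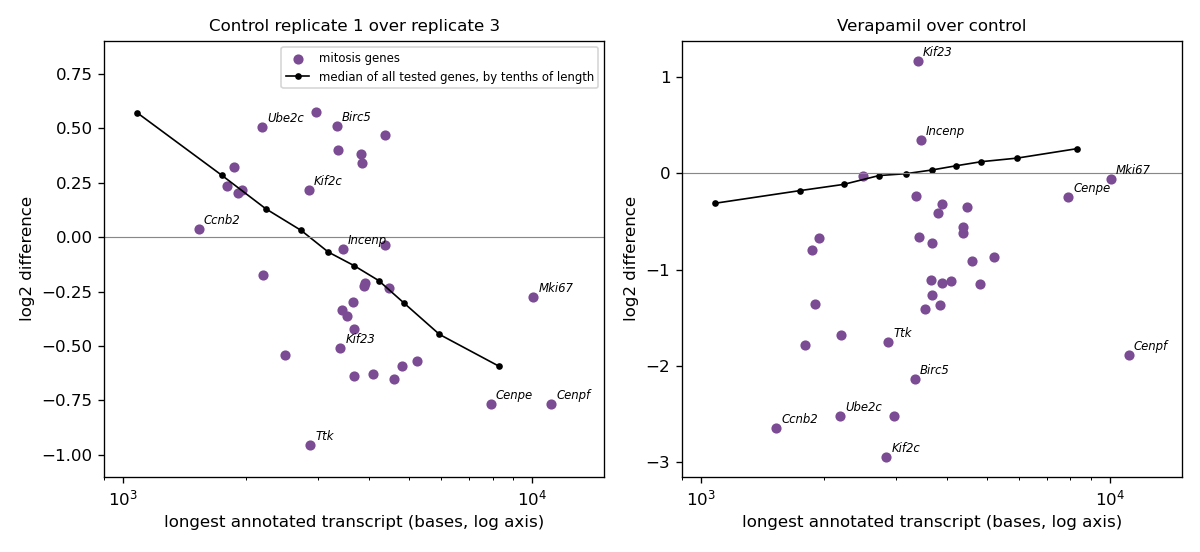
Log2 difference between control replicates 1 and 3 (left) and between verapamil and control (right) for the 34 mitosis genes, against the length of the longest annotated transcript in bases on a log axis. Black points are medians of all tested genes in 10 bins of length, running from 0.57 to -0.59 on the left and from -0.31 to 0.26 on the right. On the right most mitosis genes lie below that line.

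A further 73 genes of mitosis outside the 34 were tested, and 29 were lower and 2 higher with a median of -0.80, where 15.4% and 9.99% of all tested genes were. The summed level of the list, 75 genes with those not tested, did not separate the groups. It was 672 and 723 CPM in controls and 691, 677 and 683 CPM with verapamil. Of the 29, 9 reached the filter's minimum in no verapamil library and were tested only through the controls, and 8 of these 9 were also called with no filter. Under the stricter filter, which tests fewer genes, 13 of the list were called in either direction, where 2331 of 10636 tested genes were. The largest called changes rested on few counts, and of the 4 only Pbk had a verapamil library at the minimum. They were Pimreg (50 and 32 counts in controls against 3, 4 and 3, log2 -3.39), Cenpm (17 and 10 against 2, 2 and 0, log2 -3.04), Depdc1a (24 and 21 against 1, 1 and 5, log2 -3.02) and the mitotic kinase Pbk (57 and 44 against 6, 10 and 1, log2 -2.94). The 2 that rose, named after their values were seen, were Cdc25b, a phosphatase that activates Cdk1 (322 and 365 counts against 566, 538 and 560, log2 0.88, edgeR adjusted p = 0.00262), and the condensin subunit gene Ncapg2 (log2 0.73, edgeR adjusted p = 0.0175).

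Of 40 DNA replication genes 14 were lower and 0 higher, with a median of -0.41, where 15.4% and 9.99% of all tested genes were. A difference between this list and the mitosis genes was not tested. The largest falls were in the thymidine kinase gene Tk1 (180 and 122 counts against 29, 38 and 42, log2 -1.87), the methylation maintenance factor Uhrf1 (189 and 195 against 43, 57 and 38, log2 -1.86), the ribonucleotide reductase subunit Rrm2 (221 and 242 against 75, 53 and 77, log2 -1.57) and Mcm10 (39 and 53 against 14, 18 and 11, log2 -1.48).

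Of 21 tested regulators of these programmes 1 was lower and 3 were higher (median 0.18), where 15.4% and 9.99% of all tested genes were. These 4 calls became 1 to 13 when 1 library was left out, where 11.6% to 60.9% of all genes were called, and 11 with the length trend removed, where 45.9% were. Mybl2, for B-Myb, which joins the complexes at cell cycle homology regions, had 60 and 38 counts in controls and 8, 15 and 7 with verapamil (log2 -2.09, SE 0.419, edgeR adjusted p = 0.0156). E2f2, Lin9 and Lin54 rose by 0.87, 0.74 and 0.55 on the log2 scale (edgeR adjusted p = 0.00491, 0.0267 and 0.0309), the last pair encoding subunits of the same complexes, of which Lin54 binds the homology region. Foxm1, the factor that activates mitosis genes in G2, is given as a reference outside the naming rule, with 91 and 117 counts against 77, 70 and 71 (log2 -0.32, edgeR adjusted p = 0.205).

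Markers of 2 other groups of cells were lower along with the mitosis genes. For the lists that follow, the shares over all tested genes were 15.4% lower and 9.99% higher. Of 16 stromal and osteoblast markers listed, 14 were tested and 13 were lower, with a summed level of 2278 to 2891 CPM in controls and 925 to 1017 CPM with verapamil. Lum, one of them, had at most 2 counts in any library. Of 9 erythroid and megakaryocyte markers 4 were tested and all 4 were lower (25.8 to 40.2 CPM against 2.74 to 3.15). Itga2b had 16 and 13 counts in controls against 4, 4 and 2, and Ppbp 40 and 44 against 8, 3 and 4. Itga2b and Ppbp reached the filter's minimum in no verapamil library and were tested only through the controls. The platelet factor gene Pf4, at 727 and 472 counts against 16, 15 and 16, held most of this list's 894 and 604 control counts. The globin gene Hba-a1 was at 0 in every library. Of 12 macrophage markers 8 were lower and 2 higher, and their sum was 30707 to 31049.7 CPM in controls and 41946 to 45685 CPM with verapamil. Lyz2 made up most of that sum, and the other 11 summed to 8902 to 9961 CPM in controls and 5945 to 6127 CPM with verapamil. Granulocyte and progenitor markers (11 listed, of which 4 were tested, 1 lower and 1 higher) summed to 10.97 to 14.9 CPM in controls and 11.8 to 12.7 CPM with verapamil. Of 6 lymphoid markers listed, 4 were tested, 1 lower and 1 higher (Cd4), and 3 of the 4 estimates were negative. The list summed to 211 to 299 CPM in controls and 393 to 426 CPM with verapamil. Nearly all of this was Cd4, with 4632 of 4684 and 6957 of 7004 counts in controls. Cd79a had no more than 2 counts in any library. Endothelial markers split, 2 lower (Pecam1 and Emcn) and 2 higher (Kdr and Vwf) of 4 tested (76.9 to 108 CPM against 308 to 365). Vwf made up most of that sum, with 1553 of 1712 and 2282 of 2529 counts in controls. Tek had no more than 2 counts in any library. Of the other markers called lower, Alpl, Cx3cr1, S100a9 and Klrb1c also reached the filter's minimum in no verapamil library. Which cells the mitosis transcripts came from, and the part of these cell types in the changes, was not tested.

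Some counts could include reads of other genes, because neither strand use nor the treatment of shared reads is given in the sources used here. Exon bases were shared with another gene in 9 of the 34, all but Top2a with a gene on the opposite strand. The largest shares were 29.3% in Kif20a (with Cdc23), 22.8% in Ube2c (with Tnnc2), 12.5% in Ccna2 (with Exosc9) and 11.1% in Prc1 (with Rccd1). Copies of at least 90% identity covered more than 50% of the longest transcript in 5 genes, which were Cdc20, Plk1, Kif11, Ccnb1 and Kif2c, so values of these are less certain.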

How the data were processed

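RNA-seq libraries of mouse osteoclast cultures were prepared from 1.3 ug of total RNA with a SMARTER mRNA kit, per the labels' protocols. The table deposited by the authors holds estimated counts of reads per gene, with 2 decimals and, judged from the values, no normalization. Per the submitters' processing notes the builds were GRCm38 and mm10. Aligner, counter and annotation: not given in the sources used here. Of 6 labelled libraries 5 were used. The test had been planned for 3 libraries against 3.

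Values were rounded to integers. Libraries were scaled by TMM with edgeR 4.0.16 under R 4.3.3, low genes were removed by its expression filter (minimum count 10, minimum total 15), and group was the single term of the quasi-likelihood fit (3 residual degrees of freedom). Benjamini-Hochberg adjustment ran over all 12619 genes, with calls at an adjusted p under 0.05. SE was derived from the log2 fold change and the root of its F statistic. The fit was checked on simulated counts. Alternatives were upper quartile factors, DESeq2 1.42.0, no filter and a stricter one (a mean of 10 in each group and 50 overall), leaving out each library, a replicate block, and an offset for a loess trend against transcript length (span 0.5). Lengths, shared exons and copies (blastn 2.17.0) came from GENCODE M21. Positions and promoters came from RefSeq.

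The members and lists were chosen with earlier results of these data known. All 34 members were named, and of each other list up to 4 called genes with the largest changes. Depth was 20202340 to 21494523 reads per library, and intervals cover counting error only.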

Additional observations from a re-analysis of the deposited data

How the results depend on the processing

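In the fits without 1 library, calls over all genes numbered 1460 to 7808 and calls among the mitosis genes 14 to 27, against 3200 and 23 with all libraries. The median log2 fold change of the mitosis genes ranged from -1.18 to -0.78 there, was -1.09 with upper quartile factors and -0.90 with the length trend removed, where 5798 genes were called. Calls among the other mitosis genes, 31 with all libraries, were 13 under the stricter filter, which tests fewer genes, and 15 to 41 without 1 library, and those among DNA replication genes, 14 with all libraries, 5 to 23. Over all genes 11.6% to 60.9% were called in those fits. Ccnb1 changed sign (-0.27 to 0.27 without 1 library, 0.16 with the length trend removed), as did Cenpe (-0.58 to 0.19) and Mki67 (-0.19 to 0.089), and the cause was not tested. The other 31 mitosis genes kept their sign in each setting run. With the replicate block over replicates 1 and 3 (4 libraries), 22 mitosis genes were called, Aurkb gaining and Spc25 and Tpx2 losing the call. Between these pairs the differences of log2 CPM correlated at 0.186 across genes, and with 2 pairs this does not show that the numbers pair the libraries. Ttk, with 97 counts in all and none of its verapamil libraries at the filter's minimum, is the least counted member.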
